A study of Mus musculus with 2 samples.

Results

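The genes described here are the variable segments of the T cell receptor alpha and beta loci, taken as every gene whose symbol starts with Trav or Trbv. They number 163, of which 128 are Trav and 35 are Trbv, among 32285 genes measured. Their UMIs, the unique molecular identifiers that stand for captured RNA molecules, were counted in single cells of tumours that grew in C57BL/6 mice from MC38, a mouse colon carcinoma line. The RSPO3-OE library came from MC38 cells that overexpress RSPO3, a secreted activator of Wnt signalling, and the Ctrl library from MC38 control cells. The sources used here do not name the overexpression construct, the age or number of the hosts or the day of harvest. Each group had 1 library, so no difference has a replicate check and no p-value was computed. Cells of a library are not replicates, and cells of the same clone share a receptor. Every interval is an exact 95% interval that covers counting error only. Beside a count of 0, the share it allows is 3 counts of the total, and the upper end of the exact interval, which is somewhat higher, follows it.

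A T cell makes its receptor by joining a V segment to J segments, and in the beta chain also a D segment, and splicing the result to a constant gene. The alpha chain uses Trac, and the beta chain uses either Trbc1 or Trbc2. The cells of a clone carry the same rearrangement, so the V gene in a cell is part of its clonal identity. Exclusion of the other allele is strict for the beta chain and loose for the alpha chain, so a T cell can carry a pair of rearranged alpha genes. The V segment lies at the 5' end of the mature transcript, whereas these libraries read the 3' end, which lies in the constant gene. The longest annotated transcripts of Trac, Trbc1 and Trbc2 were 935, 737 and 692 bases.

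CD8 T cells were cells with at least 2 UMIs of Cd8a and Cd8b1 together and at least 2 of Cd3d, Cd3e and Cd3g together. They numbered 344 in RSPO3-OE and 181 in Ctrl, which was 4.92% and 2.63% of the cells kept. CD4 T cells had at least 1 Cd4 UMI, 0 of Cd8a and Cd8b1 and at least 2 of the Cd3 genes, and they numbered 31 and 5. A further 41 and 22 cells met the Cd3 limit alone. Of genes outside the rule, Nkg7, a cytotoxic granule gene, was present in 99.7% and 100% of the CD8 cells and Gzmk in 16.0% and 15.5%. Nkg7 was not particular to them, since it was also present in 61.3% and 60% of the CD4 cells. The NK cell gene Ncr1 was present in 0 of 344 and 0 of 181 CD8 cells. A C1qa, C1qb and C1qc sum of 2 or more, a macrophage mark, was found in 31 and 32 of the CD8 cells, and 5 or more Lyz2 UMIs in 6 and 6.

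The germline ends of the V segments that led the usage are shown first, because several of them exist as near-identical copies that short reads may not separate. Each line gives the last 60 bases of the annotated V segment, 5' to 3', from the mm10 annotation and on the plus strand. In the Trav16, Trav13-1 and Trbv12 lines, capitals mark bases that differ among the copies of that gene. In the Trav19 and Trbv20 lines, capitals mark the last in-frame cysteine codon, the conserved residue where the hypervariable junction begins. In Trav10d nothing is capitalised, because its copies Trav10 and Trav10n have the same last 60 bases.
Trav16n, chr14:53351562-53351621: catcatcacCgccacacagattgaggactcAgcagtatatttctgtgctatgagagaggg
Trav16, chr14:53743646-53743705: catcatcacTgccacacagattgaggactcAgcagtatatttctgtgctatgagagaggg
Trav16d-dv11, chr14:53047762-53047821: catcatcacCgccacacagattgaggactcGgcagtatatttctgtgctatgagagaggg
Trav10d, chr14:52811437-52811496: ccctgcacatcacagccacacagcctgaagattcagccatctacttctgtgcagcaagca
Trav13-1, chr14:53545466-53545525: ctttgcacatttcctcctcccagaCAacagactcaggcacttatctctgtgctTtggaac
Trav13d-1, chr14:52851807-52851866: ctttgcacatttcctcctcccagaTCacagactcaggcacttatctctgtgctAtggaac
Trav19, chr14:53845768-53845827: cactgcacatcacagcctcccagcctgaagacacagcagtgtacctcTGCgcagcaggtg
Trbv12-1, chr6:41114008-41114067: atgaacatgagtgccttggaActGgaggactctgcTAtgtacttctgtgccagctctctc
Trbv12-2, chr6:41119305-41119364: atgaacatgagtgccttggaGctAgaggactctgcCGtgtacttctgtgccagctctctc
Trbv20, chr6:41188918-41188977: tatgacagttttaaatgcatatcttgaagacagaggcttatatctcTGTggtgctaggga
Over the whole coding sequence, Trav16n and Trav16 differed at 5 of 350 aligned bases, and Trav10d and Trav10 at 3 of 343. Trav13-1 and Trav13d-1 differed at 12 of 331, while Trav13d-1 and Trav13n-1 differed at 1 of 331 and share the end shown. Trbv12-1 and Trbv12-2 were further apart, with 44 differing bases among 372 aligned.

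Few V molecules were captured. The kept cells held 109 V UMIs in RSPO3-OE and 52 in Ctrl, and 93.6% and 94.2% of them lay in cells that met the Cd3 limit. Of the 163 genes, 51 had at least 1 UMI in a kept cell, 33 Trav and 18 Trbv. The other 95 Trav and 17 Trbv genes had none. By biotype, 49 of 130 annotated as functional V genes had a UMI, against 2 of 33 annotated as pseudogenes, Trbv24 and Trav8-2, each with 1 UMI in Ctrl.

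In CD8 T cells, a V gene of either chain was read in 69 of 344 cells (20.1%, 16.0 to 24.7) of RSPO3-OE and 35 of 181 (19.3%, 13.9 to 25.9) of Ctrl. These shares differed by less than their counting error, but the chains did not contribute alike. A Trav UMI was present in 44 RSPO3-OE cells (12.8%, 9.45 to 16.8) and 15 Ctrl cells (8.29%, 4.71 to 13.3). A Trbv UMI was present in 28 RSPO3-OE cells (8.14%, 5.48 to 11.5) and 21 Ctrl cells (11.6%, 7.33 to 17.2). The intervals of the libraries overlapped for each chain. The median total per CD8 cell was 7118 UMIs in RSPO3-OE and 7465 in Ctrl. At an equal depth of 2000 UMIs per cell, below which 3 RSPO3-OE cells fell, the expected shares were 3.89% and 2.46% for Trav and 2.28% and 3.57% for Trbv.

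**Figure D1:**
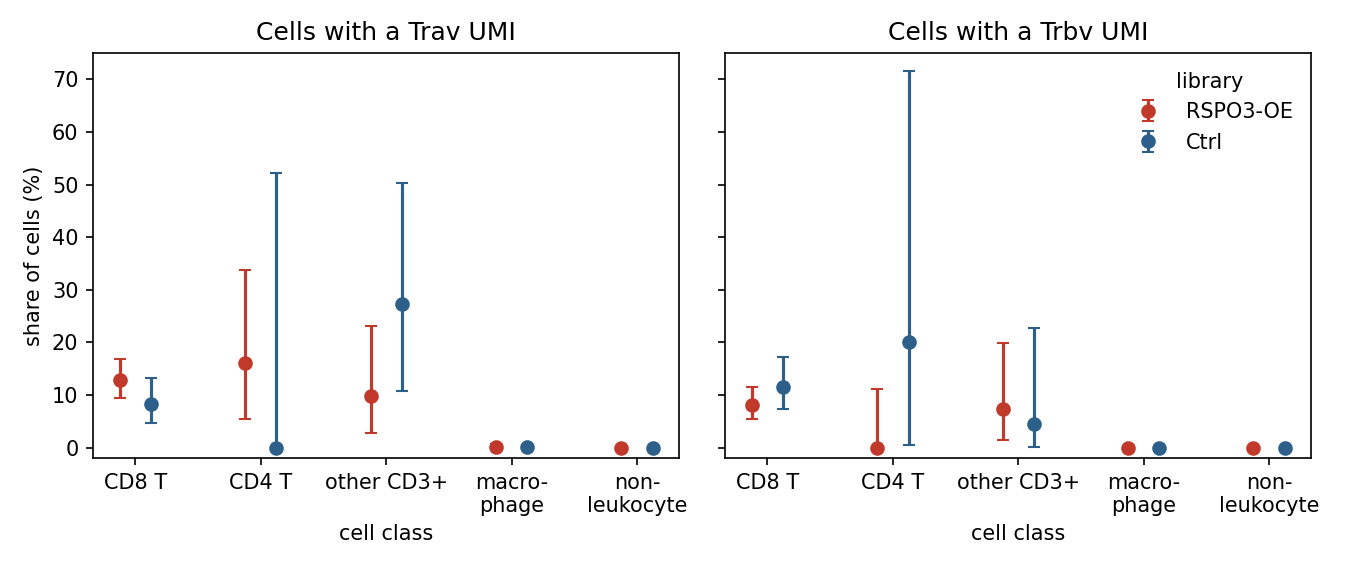
Share of cells with at least 1 Trav UMI (left) or Trbv UMI (right), in percent, for each cell class and library, with exact 95% counting intervals. CD8 T cells lie between 8.14% and 12.8% in both panels, CD4 T cells have wide intervals because they number 31 and 5, and macrophages and non-leukocytes lie near 0.

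Summed over CD8 cells, the Trav genes had 59 UMIs in RSPO3-OE and 15 in Ctrl, or 19.6 and 8.04 CPM (counts per 1000000 UMIs of the class). The log2 ratio of RSPO3-OE over Ctrl was 1.29 (0.45 to 2.21). The Trbv genes had 30 and 25 UMIs, or 9.97 and 13.4 CPM, with a log2 ratio of -0.43 (-1.24 to 0.40). The constant gene of the alpha chain, Trac, had 1639 and 1102 UMIs and a log2 ratio of -0.12 (-0.23 to -0.01). Trav molecules were 3.47% (2.66 to 4.46) of all Trav and Trac UMIs in RSPO3-OE and 1.34% (0.753 to 2.21) in Ctrl. Trbv molecules were 0.528% (0.356 to 0.753) and 0.704% (0.456 to 1.04) of all Trbv, Trbc1 and Trbc2 UMIs. The Trav intervals did not overlap and the Trbv intervals did. These intervals, and those of the ratios, count each UMI apart, although UMIs of a cell or clone are not independent. By cells with a Trav UMI the intervals overlapped, at 9.45 to 16.8 and 4.71 to 13.3. Trav10d and Trav16n each gave 11 of the 59 RSPO3-OE UMIs and 0 in Ctrl, so much of the Trav excess lay in these genes.

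Cells that should have no receptor gave the background. Among macrophages, with at least 5 C1q UMIs and no Cd3 UMI, a Trav gene was read in 3 of 1292 cells (0.232%) of RSPO3-OE and 1 of 1222 (0.0818%) of Ctrl, at median depths of 11908 and 12587 UMIs. A Trbv gene was read in 0 of them in each library, which allows a share of up to 0.232% (exact 0.285%) and 0.245% (exact 0.301%). Among cells without Ptprc, C1q or Cd3 UMIs, Trav was read in 0 of 2773, which allows up to 0.108% (exact 0.133%), and 1 of 3257 cells, and Trbv in 1 and 1. Trav14-family genes made up all 4 macrophage UMIs, 3 from Trav14d-3-dv8 and 1 from Trav14-3. Trav14-2 added 3 UMIs in RSPO3-OE cells outside every class named here, so 6 of the 7 V UMIs outside Cd3-positive cells in that library were of the Trav14 family, against 1 of 3 in Ctrl.

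Among the Trav genes of CD8 T cells, Trav16n was read in the most RSPO3-OE cells. Trav16n (ENSMUSG00000076822, chr14:53351028-53351621) had 11 UMIs in 8 of 344 RSPO3-OE cells (2.33%, 1.01 to 4.53) and 0 UMIs in 181 Ctrl cells, which allows up to 1.66% (exact 2.02%). Trav10d (ENSMUSG00000094792, chr14:52810934-52811496) had 11 UMIs in 7 RSPO3-OE cells and 0 in Ctrl. Trav13-1 (ENSMUSG00000076839, chr14:53545014-53545525) had 8 UMIs in 6 RSPO3-OE cells and 4 UMIs in 4 Ctrl cells, where it led. All 3 are annotated as functional V genes, and each is read here as a gene or as one of its near-identical copies. Trav19 followed in RSPO3-OE with 5 cells, 0 in Ctrl, then Trav3-1 with 4 cells against 1 and Trav14-1 with 3 against 1. In Ctrl, Trav13n-1 and Trav4-3 were read in 2 cells each and Trav12-1 and Trav13d-1 in 1 cell each. The remaining RSPO3-OE Trav genes were each read in 1 or 2 cells.

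Among the Trbv genes, Trbv12-1 (ENSMUSG00000095574, chr6:41113550-41114067) and Trbv12-2 (ENSMUSG00000094525, chr6:41118851-41119364) were each read in 6 RSPO3-OE cells with 6 UMIs. In Ctrl Trbv12-1 was read in 0 cells and Trbv12-2 in 1. Trbv19 and Trbv26 were each read in 5 RSPO3-OE cells, against 2 and 0 Ctrl cells, and Trbv13-1 in 3 against 0. Trbv20 (ENSMUSG00000076476, chr6:41188273-41188977) went the other way, with 1 UMI in 1 RSPO3-OE cell and 8 UMIs in 7 Ctrl cells. As a share of CD8 cells that was 0.291% (0.00736 to 1.61) and 3.87% (1.57 to 7.81), intervals that only just overlapped. Trbv17 was read in 0 RSPO3-OE and 3 Ctrl cells, Trbv2 in 1 and 2, and Trbv16 in 0 and 1, with 2 UMIs.

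**Figure D2:**
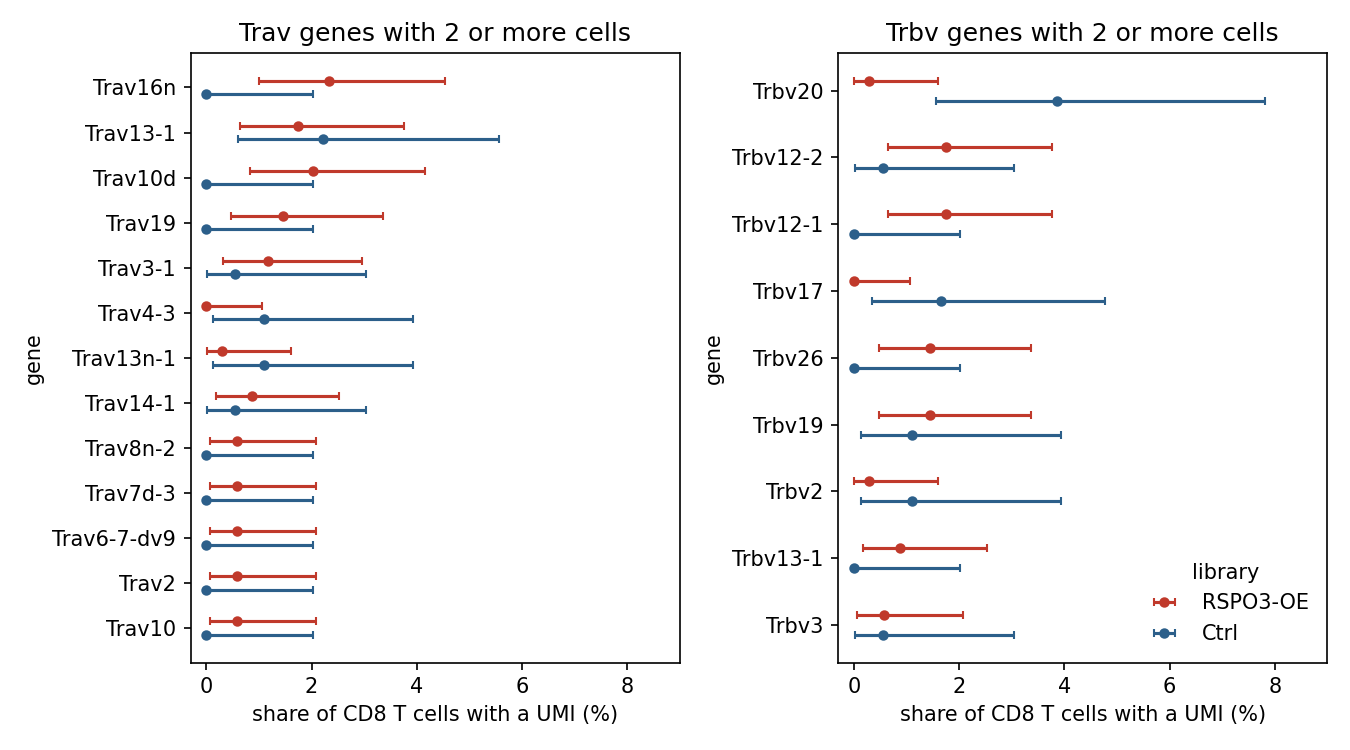
Share of CD8 T cells with a UMI, in percent, for the Trav genes (left) and Trbv genes (right) read in 2 or more cells of a library, with exact 95% counting intervals. Trbv20 stands at 3.87% in Ctrl against 0.291% in RSPO3-OE, while Trav16n and Trav10d stand at 2.33% and 2.03% in RSPO3-OE against 0 in Ctrl.

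Of the 38 V genes read in CD8 T cells, 10 were read in both libraries, 15 in RSPO3-OE alone and 13 in Ctrl alone. No like count over other genes stands beside this split, so nothing about V genes is read from it. A gene read in 1 or 2 RSPO3-OE cells lies below the 1.66% (exact 2.02%) that 0 of 181 Ctrl cells allows, so most genes read in a single library cannot be called particular to it at this depth. At least 10 UMIs over both libraries were reached by 3 V genes. Of these, 2 were at least 2-fold higher in RSPO3-OE and 0 at least 2-fold lower, while 3.78% of the 10777 genes with that many UMIs in these cells were at least 2-fold higher and 10.2% at least 2-fold lower. The 2 genes, Trav16n and Trav10d, reached 10 UMIs through RSPO3-OE alone, so their place past 2-fold was set by the limit, and nothing is read from the count. The median log2 ratio over the 10777 genes was -0.06. At 11 UMIs against 0, each of the 2 had a log2 ratio of 1.18 over an assumed floor of 3 Ctrl UMIs, and the lower end of the exact counting interval was 0.64. Trav13-1 had a log2 ratio of 0.31 (-1.59 to 2.49). By number of cells in place of UMIs, 0 of the 3 genes passed 2-fold, with log2 values of 0.49 for Trav16n and 0.30 for Trav10d against the same floor. Without CD8 cells that bore C1q or Lyz2 UMIs at the levels given above, Trav16n had 9 UMIs, below the limit of 10, which left Trav10d as the gene past 2-fold.

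Trbv20 did not reach 10 UMIs, and its values are given because it led in Ctrl. A gene picked as the highest of a library leans towards being higher there, so nothing is read from its ratio. Its level was 4.29 CPM in Ctrl against 0.332 CPM in RSPO3-OE, and its log2 ratio was -3.69 (-9.16 to -0.79). Over the alternatives tried that ratio ran from -3.85 to -3.63. Leaving out the cells with C1q or Lyz2 UMIs kept 1 UMI against 8.

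Read as copy groups and families, the usage had fewer and larger units. The Trav10 copies were read in 9 of 44 Trav-bearing RSPO3-OE cells (20.5%, 9.80 to 35.3) and 0 of 15 in Ctrl (exact upper end 21.8%). The Trav16 copies were read in 9 RSPO3-OE cells and 1 Ctrl cell (6.67%, 0.169 to 31.9). The Trav13-1 copies were read in 8 RSPO3-OE cells (18.2%, 8.19 to 32.7) and 7 Ctrl cells (46.7%, 21.3 to 73.4). The Trbv12 family held 12 of 28 Trbv-bearing RSPO3-OE cells (42.9%, 24.5 to 62.8) and 1 of 21 Ctrl cells (4.76%, 0.120 to 23.8), which were the intervals among these groups that did not overlap. Trbv20, alone in its family, held 1 of 28 (3.57%, 0.0904 to 18.3) and 7 of 21 (33.3%, 14.6 to 57). Each group named here led its chain in a library, and that choice leans towards a difference.

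Unevenness was described by the share of the leading gene, by the effective number of genes (a bias-corrected Simpson index, equal to the number of equally used genes that would give the same chance of drawing a gene again) and by the expected number of genes at an equal number of gene readings. For Trav, the leading gene held 18.2% (8.19 to 32.7) of the Trav-bearing cells in RSPO3-OE and 26.7% (7.79 to 55.1) in Ctrl. The effective number was 13.4 and 13.1, and 15 readings held 9.56 genes in RSPO3-OE and 10 in Ctrl. Of the 17 Trav genes read in RSPO3-OE, 6 were read in a single cell, and of the 10 in Ctrl, 7 were. Each leading share lay inside the other library's interval. With the near-identical copies merged the numbers parted, to a leading share of 20.5% in RSPO3-OE and 46.7% in Ctrl and an effective number of 9.56 and 4.77, while 15 readings held 8.23 and 8 copy groups.

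Trbv usage differed more in its number of genes. RSPO3-OE had 8 Trbv genes in 29 readings and Ctrl had 13 in 23. At 23 readings RSPO3-OE held an expected 7.54 genes. In Ctrl, 9 of the 13 genes were read in a single cell, against 2 of the 8 in RSPO3-OE, although the leading gene held more of the Ctrl cells, 33.3% against 21.4% (8.30 to 41.0). The effective number was 7.52 in RSPO3-OE and 9.73 in Ctrl. With genes merged to families the order of the leading shares turned, to 42.9% in RSPO3-OE (Trbv12) and 33.3% in Ctrl (Trbv20), and the effective numbers were 4.51 and 9.73. No value over replicates is available against which to set these differences. Leaving out the cells with C1q or Lyz2 UMIs turned the order of the effective numbers, to 8.13 and 6.95, while at 18 readings the expected number of genes remained lower in RSPO3-OE, at 7.27 against 11.

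**Figure D3:**
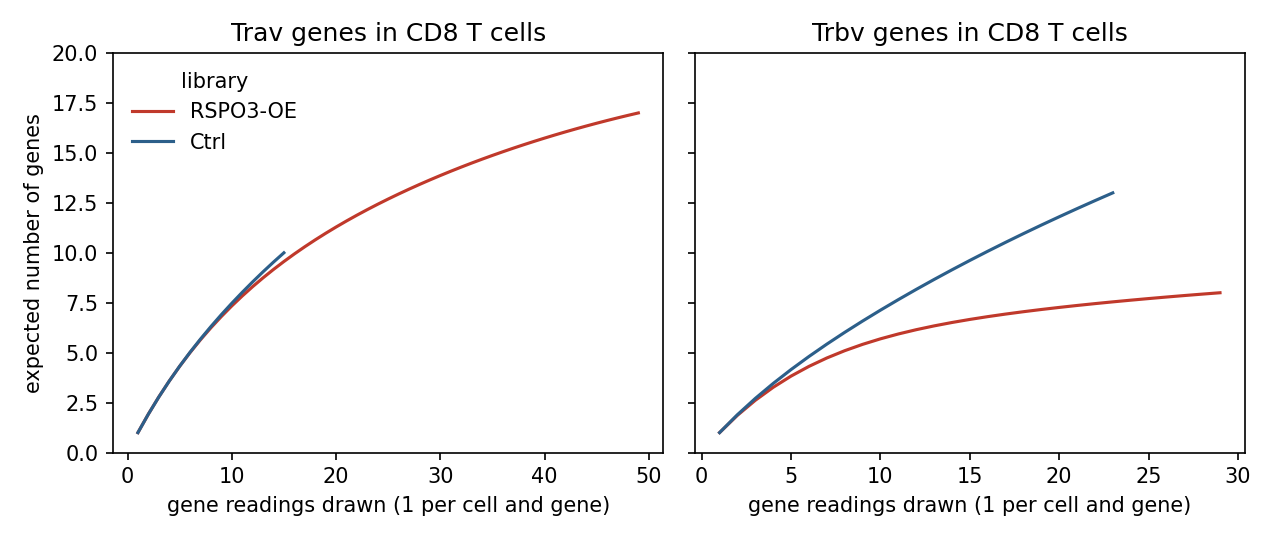
Expected number of genes (y axis) against the number of gene readings drawn, 1 per cell and gene (x axis), for Trav (left) and Trbv (right) in CD8 T cells of each library. The Trav curves run together up to 15 readings, and the Trbv curves part to 7.54 genes in RSPO3-OE and 13 in Ctrl at 23 readings.

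Few cells gave more than 1 V gene. Both chains were read in 3 of the 69 V-bearing RSPO3-OE cells and 1 of the 35 in Ctrl, so V pairings can hardly be read from these libraries. In RSPO3-OE these were Trav16n with Trbv3, Trav14-1 with Trbv12-2, and Trav10d in a cell with both Trbv12-1 and Trbv19. In Ctrl it was Trav8-2 with Trbv1. A pair of Trav genes was read in 5 of the 44 Trav-bearing RSPO3-OE cells (11.4%, 3.79 to 24.6) and 0 of 15 in Ctrl (exact upper end 21.8%). In 3 of these 5 cells the pair was Trav10d with Trav19. Those 3 cells were 3 of the 7 with Trav10d and 3 of the 5 with Trav19, whereas every other pair of V genes was read in 1 cell. A pair of Trbv genes was read in 1 of 28 and 2 of 21 cells.

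The cells of a V gene were then set beside the beta constant genes, which the rule did not use. All 7 Trav10d cells had 0 Trbc1 UMIs and between 6 and 21 Trbc2 UMIs each, 97 in all. The near-identical Trav10 was read in 2 further cells, 1 with 0 Trbc1 and 10 Trbc2 UMIs and 1 with 22 Trbc1 and 8 Trbc2 UMIs. All 5 Trav19 cells had 0 Trbc1 UMIs and 71 Trbc2 UMIs in all, but 3 of them are Trav10d cells already counted. In the library as a whole 120 of 344 CD8 cells (34.9%, 29.9 to 40.2) had no Trbc1 UMI. Among its 69 V-bearing CD8 cells the share was 44.9% (32.9 to 57.4). The interval of the Trav10d cells, 59.0% to 100%, lay above both, just above the second. It leaves out the 2 Trav10 cells, 1 of which had Trbc1 UMIs, and it treats cells that may share a clone as separate draws. Trav10d stood highest with Trav19 among the 8 V genes read in at least 5 RSPO3-OE cells. Picking the highest leans towards a difference, so nothing is read from the gap between these intervals. Of the 8 Trav16n cells, 5 had no Trbc1 UMI, and the other 3 had 5, 10 and 22. Without Trbc1 were 4 of the 6 Trav13-1 cells, 4 of the 6 Trbv12-1 cells, 2 of the 6 Trbv12-2 cells, 1 of the 5 Trbv19 cells and 1 of the 5 Trbv26 cells. More Trbc1 than Trbc2 was found in 2 of the Trbv12-1 cells and 2 of the Trbv12-2 cells. The 5 Trbv26 cells had 0 to 3 Trbc1 and 6 to 14 Trbc2 UMIs. The last 300 windows of 50 bases in Trbc1 and Trbc2 were all distinct between the pair.

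In Ctrl the pattern around its leading gene was different. All 7 Trbv20 cells had UMIs of both constant genes, 9 to 18 of Trbc1 and 6 to 17 of Trbc2, with sums of 91 and 78. UMIs of both were present in 144 of 181 Ctrl CD8 cells (79.6%, 72.9 to 85.2), so the 7 cells, with an interval of 59.0% to 100%, did not stand apart from their library. The share of CD8 cells without Trbc1 was 19.3% (13.9 to 25.9) in Ctrl. These comparisons were made within 1 library and over cells that may share a clone, and they cover the V genes read in at least 5 CD8 cells of a library, and Trav10.

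**Figure D4:**
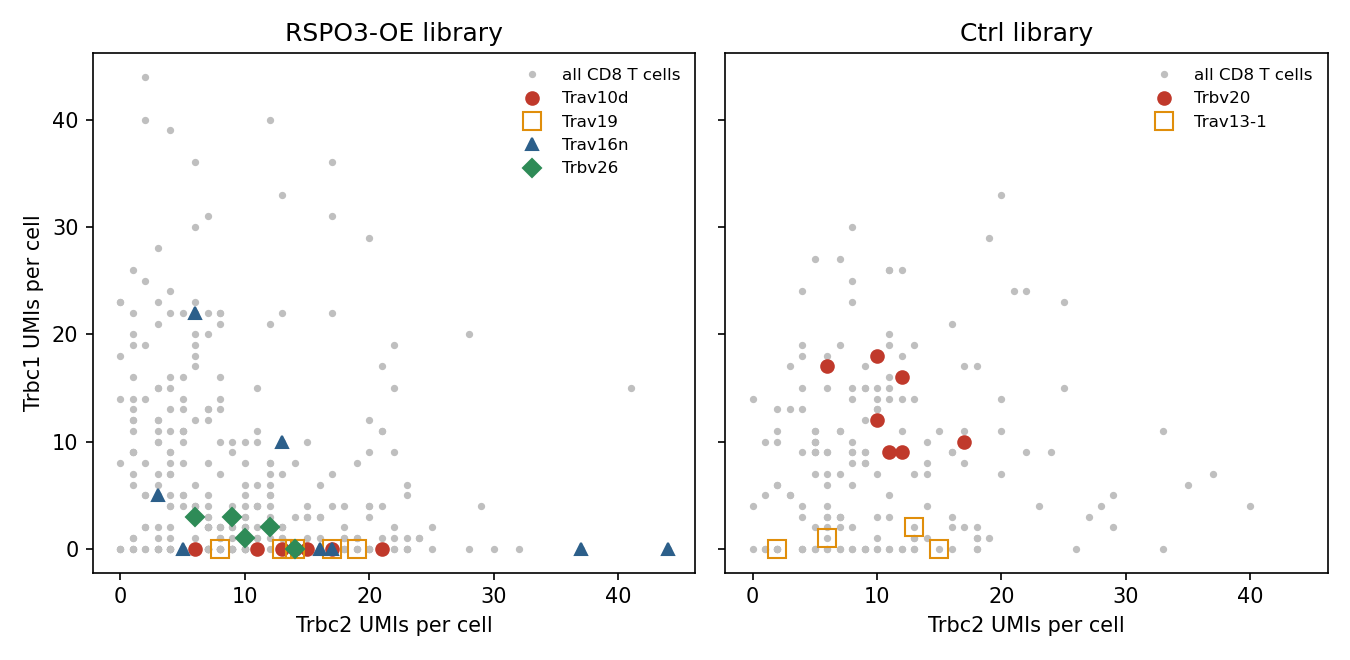
Trbc1 UMIs (y axis) against Trbc2 UMIs (x axis) per CD8 T cell in RSPO3-OE (left) and Ctrl (right), grey for all CD8 T cells and coloured for cells with Trav10d, Trav19, Trav16n or Trbv26 in RSPO3-OE and Trbv20 or Trav13-1 in Ctrl, a choice among the V genes read in several cells. The Trav10d and Trav19 cells, 3 of which bear both genes, lie at 0 Trbc1, and the Trbv20 cells lie between 9 and 18 Trbc1.

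V capture differed between states of the CD8 cells by less than counting error. RSPO3-OE cells with at least 2 UMIs of the late granzymes Gzmc to Gzmg, cytotoxic proteases of activated killer cells, bore a Trav UMI in 16 of 124 cells (12.9%, 7.56 to 20.1), against 28 of 220 other cells (12.7%, 8.63 to 17.9). For Trbv these shares were 9.68% (5.10 to 16.3) and 7.27% (4.21 to 11.5). In Ctrl a Trbv UMI was found in 8 of 48 late-granzyme cells (16.7%, 7.48 to 30.2) and 13 of 133 others (9.77%, 5.31 to 16.1). Dividing cells, with at least 2 Mki67 and Top2a UMIs, bore Trav in 17 of 101 cells (16.8%, 10.1 to 25.6) of RSPO3-OE against 27 of 243 others (11.1%, 7.45 to 15.8). Their median depths were 12142 and 6155 UMIs, and at 2000 UMIs per cell the expected shares were 3.96% and 3.87%. All these intervals overlapped. Of the 7 Trav10d cells, 4 bore late granzymes, as did 4 of the 7 Trbv20 cells of Ctrl.

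CD4 T cells gave 5 Trav readings in RSPO3-OE, from 5 of 31 cells (16.1%, 5.45 to 33.7), and each was a different gene: Trav14d-3-dv8, Trav16n, Trav4-3, Trav5-1 and Trav8-1. No Trbv gene was read in those 31 cells, which allows up to 9.68% (exact 11.2%). In Ctrl a Trav gene was read in 0 of 5 CD4 cells, which allows up to 60% (exact 52.2%, here the lower of the pair), and Trbv13-2 was read in 1. No unevenness can be stated for CD4 cells. Foxp3, the regulatory T cell factor, marked 12 of the 31 RSPO3-OE cells, and 2 of the 5 Trav readings lay in them. In the further Cd3-positive cells, a Trav gene was read in 4 of 41 and 6 of 22 cells and a Trbv gene in 3 and 1.

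The other receptor genes set the V genes in context. Of 116 listed genes, which were the constant genes, the CD3 chains, the coreceptors, the recombination enzymes and the D, J, gamma and delta segments, 14 had at least 10 UMIs in CD8 cells. At least 2-fold higher were 0 of these 14 and lower 1, with a median log2 ratio of 0.13. Of the 10777 genes with that many UMIs in these cells, 3.78% were at least 2-fold higher and 10.2% lower. A count of 1 in 14 does not set the list apart from those shares. Cd3d, Cd3e, Cd3g, Cd8a and Cd8b1 are among the 14, and their UMIs defined the CD8 cells. Nothing about the list is therefore read from the count or the median. The 84 D and J segments had 0 UMIs in all barcodes. Rag1, Rag2 and Dntt, which rearrange and extend the segments in developing lymphocytes, also had 0 UMIs in CD8 cells. Of the CD3 signalling chains, Cd247, which the rule for T cells did not use, had a log2 ratio of 0.12 (-0.18 to 0.42). Cd3d, Cd3e and Cd3g, which that rule used, had ratios of 0.59, 0.28 and 0.49, given as a description. The same holds for Cd8a and Cd8b1, which the rule for CD8 cells used, at 0.21 and 0.34. Trbc1 had 2186 and 1567 UMIs, a log2 ratio of -0.21 (-0.30 to -0.11), and Trbc2 had 3468 and 1958, at 0.14 (0.05 to 0.22).

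The gene past 2-fold was Tcrg-C1, a gamma constant gene, with 8 UMIs in 5 RSPO3-OE cells and 44 UMIs in 17 Ctrl cells, a log2 ratio of -3.15 (-4.45 to -2.05). Tcrg-C2 had 408 and 424 UMIs, in 40.4% and 59.7% of CD8 cells, with a log2 ratio of -0.75 (-0.94 to -0.55). The gamma V gene Trgv2 was read in 77 of 344 and 60 of 181 CD8 cells, more cells than all Trav genes together in either library, and in 0 macrophages. The delta constant gene Trdc, the mark of a gamma delta receptor, had 1 and 0 UMIs in the CD8 cells. Tcrg-C2 was present in 7 of the 8 Trav16n cells (87.5%, 47.3 to 99.7), against 139 of 344 (40.4%, 35.2 to 45.8) in their library, and in 0 of the 5 Trbv26 cells. These were the highest and lowest of the 8 V genes read in at least 5 RSPO3-OE cells. Between them lay Trbv12-1 with 4 of 6, Trav10d with 4 of 7, Trav13-1 and Trbv12-2 with 3 of 6 each, and Trav19 and Trbv19 with 1 of 5 each. Over all 69 V-bearing cells the share was 43.5% (31.6 to 56.0), an interval that overlaps that of the Trav16n cells. The Trav16n cells had a median of 9419 UMIs, against 8802 in the V-bearing cells and 7118 in all CD8 cells of the library. Picking the highest and lowest of 8 genes leans towards a difference, so nothing is read from these shares. Of the last 300 windows in Tcrg-C1 and Tcrg-C2, 218 and 229 were found in none of the other constant genes compared. Those were Tcrg-C1, Tcrg-C2, Tcrg-C3, Trbc1 and Trbc2, and Tcrg-C4 was not compared. Part of the reads of Tcrg-C1 and Tcrg-C2 may therefore not be separable.

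Among the Trav genes, but not the Trbv genes, those with a UMI had in median more sequence of their own. Of all 50-base windows of an annotated V transcript, the median share found in no other V gene was 54.4% over the 33 Trav genes with a UMI and 13.0% over the 95 without. Of those 95, 39 had no such window, against 0 of the 33. For Trbv, whose segments are less duplicated, the median was 100% both for the 18 genes with a UMI and for the 17 without. Stretches rich in A, at which an oligo-dT primer could bind inside the segment, were compared by the number of A bases in the richest 15-base window. That number did not differ in median, at 9 in each of these 4 sets. The sources used here do not say how reads that match several genes were counted, and the part of shared sequence in the zeros was not tested.

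**Figure D5:**
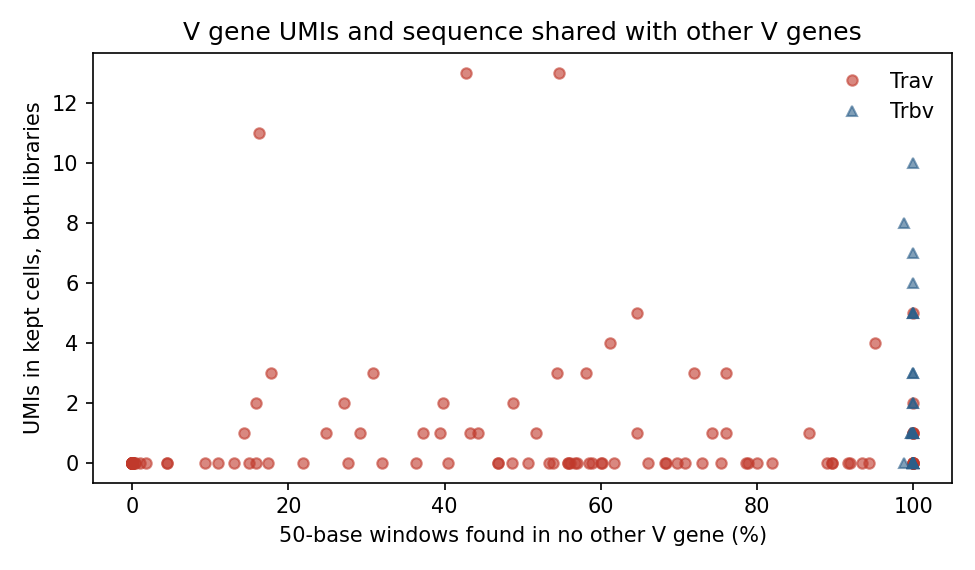
UMIs in kept cells of both libraries (y axis) against the share of 50-base windows found in no other V gene, in percent (x axis), 1 point per gene for the Trav and Trbv genes. The Trbv genes crowd near 100%, and the Trav genes with no window of their own all lie at 0 UMIs.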

How the data were processed

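The authors deposited 1 matrix of raw UMI counts per library, with genes as rows and cell barcodes as columns. Per the labels' protocols, they were made with Cell Ranger 3.0.1 from 10x Chromium 3' libraries, on mm10 per the submitters' processing notes, and the matrix headers give software version 3.1.0. No annotation release is named in these sources. The libraries held 7314 barcodes and 155615189 UMIs (RSPO3-OE) and 7301 barcodes and 143881763 UMIs (Ctrl), and 7 barcodes occurred in both, 1 of them in a Cd3-positive Ctrl cell and none in such a cell of RSPO3-OE.

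Cells needed at least 200 genes and at most 20% mitochondrial UMIs, which 150 and 311 barcodes did not meet. These and Scrublet doublets (scanpy 1.11.5, expected rate 0.05; 171 and 95) were left out, which left 6993 and 6895 cells with medians of 18915 and 16627 UMIs. UMIs were summed per class, and log2 CPM ratios have exact binomial intervals, with a floor of 3 counts for a sum of 0. Shares have Clopper-Pearson intervals, and a share of 0 also the limit of 3 counts of its total. PCR duplicates are removed by UMI, and intervals cover counting error only. Sequences, coordinates and biotypes came from GENCODE vM21, which holds all 163 gene identifiers.

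The text names, per class, chain and library, the 5 V genes with the most cells, V genes of at least 10 UMIs past 2-fold, the V gene pair with the most cells and listed receptor genes. Further genes were named after their values were seen, among them the Trav14 family outside T cells. The comparison of V gene cells with constant genes, the copy identities and the window counts were also added after values had been seen. Members and lists were chosen with earlier results of these data known. The ratios were tested on simulated data for the CD8 comparison (10777 genes), where 50 genes simulated at a true log2 of 1 gave a median of 0.99 and 50 at -1 gave -0.95. These genes were drawn at random from the 10777, so the result does not check ratios at the few UMIs of single V genes.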

Additional observations from a re-analysis of the deposited data

Results flagged for a closer look

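The filters removed 321 RSPO3-OE and 406 Ctrl barcodes, and these held 10 V gene UMIs in RSPO3-OE and 2 in Ctrl. The RSPO3-OE value was flagged because these UMIs lie in barcodes left out of the main comparisons above. The barcodes include the doublets, and keeping doublets raised the RSPO3-OE CD8 cells from 344 to 368. With all deposited barcodes Trav16n had 14 UMIs in RSPO3-OE CD8 cells and 0 in Ctrl.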

How the results depend on the processing

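No paired analysis was possible because each group has 1 library. Of 233 values recomputed under the alternatives, 209 stayed within their counting interval or within 1.5 times for counts, 24 moved, and 0 called values changed sign. Ratios under 2-fold, whose intervals span 0, did change sign: Trav13-1 went from 0.31 to -0.34 and Trav19 from 0.05 to -0.19 by number of cells, and Trav19 also to -0.04 with all barcodes or with doublets kept and to -0.11 without CD8 cells bearing myeloid marks. Thinning to 2000 UMIs lowered the shares of cells with a V UMI, to 3.89% (Trav) and 2.28% (Trbv) for RSPO3-OE CD8 cells, 2.46% and 3.57% for Ctrl CD8 cells and 4.67% for Trav in RSPO3-OE CD4 cells. Requiring 2 UMIs of a gene left 1.74% and 0.291% in RSPO3-OE CD8 cells, 0% and 1.10% in Ctrl CD8 cells, and 0% for Trav in RSPO3-OE and Trbv in Ctrl CD4 cells. It also left 6 RSPO3-OE cells with a Trav gene, a leading share of 33.3% and an effective number of 7.50, and 1 with a Trbv gene, a leading share of 100%. Merging copies or families took the effective number of Trav genes in Ctrl to 4.77, against 9.56 (copies) and 9.26 (families) in RSPO3-OE, where the unmerged values were 13.1 and 13.4. Families took the leading Trbv share in RSPO3-OE to 42.9%, above the 33.3% of Ctrl, and its effective number to 4.51. V genes at least 2-fold higher numbered 1 of 2 without CD8 cells bearing myeloid marks, 0 of 3 by number of cells, where Trav10d stood at 0.30 and Trav16n at 0.49, and 4 of 10 at a limit of 5 UMIs, where 1 was lower. The last follows from the genes that enter at the lower limit. Other changes of filter and the other scaling left the counts at 2 and 0. The number of molecules, 89 and 40 in CD8 cells, limits every statement on usage.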
